A study of Mus musculus with 11 samples.

Results

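The genes described here are those of the TGF-β module itself: 3 ligands (Tgfb1, Tgfb2, Tgfb3), 3 receptors (Tgfbr1, Tgfbr2, Tgfbr3) and 4 latent TGF-β binding proteins (Ltbp1, Ltbp2, Ltbp3, Ltbp4). They were taken by gene symbol, with earlier results of these data known, and all 10 were found among the 21846 genes of the count table. The data are RNA-seq counts from 11 cultures of mouse mammary carcinoma lines, each with a single library. The study's methods speak of replicates for each sample, whereas the labels give 1 library for each culture and do not say whether it pools any. The lines, named MamBo, came from tumors of virgin female FVB mice that carry a human HER2 transgene (FVBhuHER2), and trastuzumab, an antibody against HER2, was given at 30 µg/ml. MamBo89 (4 libraries, HER2 stable) came from one tumor and stayed HER2-positive. Its libraries were an untreated clone, the untreated parental cells, cells treated for 30 days and then grown for 30 days without the antibody, and cells treated for 60 days. MamBo43 (1 untreated library, HER2 labile) came from another tumor and was HER2-positive. MamBo43 TRT (2 libraries) was the same line after either trastuzumab schedule. The study grouped it as HER2-negative but detected some HER2-positive cells throughout in MamBo43 cultures kept with trastuzumab. MamBo38 (4 libraries, HER2 loss) was derived from a tumor that MamBo43 cells formed in mice. Its libraries were 2 untreated cultures and 1 culture under each schedule, and the line was HER2-negative.

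TGF-β is secreted as a latent complex in which the mature ligand is held by its propeptide, and a latent binding protein ties that complex to the extracellular matrix. Release of the ligand lets it bind the type II receptor, which recruits and phosphorylates the type I receptor, and the signal passes to Smad proteins in the nucleus. In mammary epithelium the pathway is known both for growth arrest and, in carcinoma, for epithelial to mesenchymal transition.

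Library totals ranged from 17040454 to 27127662 counts, with a median of 20592201. Levels are given as CPM, the counts of a gene scaled to a fixed library total, and normalised by the TMM method. The labels do not state the nature of the replicates beyond separate cultures under different treatments. P-values therefore measure only the spread between these libraries. That spread mixes clone, treatment schedule and, within the HER2 groups, line with any technical variation. MamBo43 has a single library and so no spread of its own. Summed epithelial markers (Epcam, keratins, Cdh1, claudins) were 2524 to 3933 CPM in MamBo89, 3633 in MamBo43, 299.9 to 1846 in MamBo43 TRT and 1.40 to 2.74 in MamBo38. Summed fibroblast markers ran the other way, at 35.2 to 98.2, 287, 6966 to 7653 and 3932 to 4618 CPM. Of the 8 fibroblast markers, Col1a2 was 4682 to 4943 CPM in MamBo43 TRT and 2455.5 to 3056 CPM in MamBo38, and Pdgfra was 145 to 146 CPM and 817 to 988 CPM. In these groups Col1a1 was at its lowest at 162 CPM and Col3a1 at 384 CPM, both in MamBo38, and Thy1 reached 286 counts in MamBo43 TRT. Lum was at 0 in every library, and Dpt did not exceed 3 counts or Fap 6 counts in any library. Of the leukocyte markers, Adgre1 and Cd3e were at 0 throughout, Ptprc reached 1 count, and Cd68 alone exceeded 3 counts in every library. Endothelial markers summed to at most 0.893 CPM. These marker sums move with the groups, and their part in the results below was not tested. In bulk RNA, fewer cells that express a gene and less RNA in each cell cannot be told apart.

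Tgfb1, Ltbp2 and Ltbp4 had the widest ranges of level of the 10 genes, and all 3 were lowest in MamBo89. The 250 bases before their RefSeq start sites (GRCm38.p6, 5′ to 3′ on the strand of the gene) are shown for that reason, with motif matches on either strand in capitals. RefSeq lists 3 start sites for Ltbp4, of which the outermost is shown, and its starts for Ltbp2 and Ltbp4 differ from those of GENCODE M21. The Tgfb1 window is chr7:25686752-25687001 on the plus strand, the Ltbp2 window chr12:84876492-84876741 on the minus strand, and the Ltbp4 window chr7:27337613-27337862 on the minus strand.
Tgfb1: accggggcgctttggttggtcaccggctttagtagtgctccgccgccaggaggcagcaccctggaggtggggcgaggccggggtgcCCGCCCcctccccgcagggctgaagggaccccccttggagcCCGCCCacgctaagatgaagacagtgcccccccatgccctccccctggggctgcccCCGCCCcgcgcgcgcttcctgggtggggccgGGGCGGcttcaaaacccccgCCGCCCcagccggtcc
Ltbp2: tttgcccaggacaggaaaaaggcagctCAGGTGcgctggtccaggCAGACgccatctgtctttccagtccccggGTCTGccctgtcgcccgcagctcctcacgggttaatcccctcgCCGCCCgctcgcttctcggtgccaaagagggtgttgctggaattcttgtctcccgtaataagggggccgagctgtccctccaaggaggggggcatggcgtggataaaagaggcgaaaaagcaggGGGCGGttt
Ltbp4: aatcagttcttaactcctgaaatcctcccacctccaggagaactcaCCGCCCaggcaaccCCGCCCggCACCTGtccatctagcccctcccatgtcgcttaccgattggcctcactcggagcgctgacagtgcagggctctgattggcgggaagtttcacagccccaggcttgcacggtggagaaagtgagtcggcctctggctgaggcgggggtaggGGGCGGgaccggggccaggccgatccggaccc

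The motifs searched were the E-box CAGGTG, bound by factors of the Snail and Zeb families, the Smad box CAGAC, the AP-1 site TGANTCA, the GC box GGGCGG and the TATA box TATAAA. The Tgfb1 window held 5 GC boxes and none of the other motifs, and 75.2% of its bases were G or C. The Ltbp2 window held 1 E-box, 2 Smad boxes and 2 GC boxes, with a GC content of 61.6%. The Ltbp4 window held 1 E-box and 3 GC boxes, with a GC content of 64.4%. Among all 32851 promoter windows of the same length, 32.7% held a GC box, 17.2% the E-box, 42.2% the Smad box, 12.4% the TATA box and 6.75% the AP-1 site. Of the other members, the Tgfb2 window held 2 Smad boxes and a TATA box at position −31 from the start. Windows of Tgfbr1 (its downstream start), Tgfbr2, Ltbp1 and Ltbp3 held Smad boxes, and the upstream Tgfbr1 window held 2 GC boxes. These matches describe the letters of the windows and are not binding data. Tgfb3 and Tgfbr3 are named only.

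Among the ligands, Tgfb1 (chr7:25687002-25705077, plus strand, mm10) was close to silent in one line and abundant in the other lines. Its level in the MamBo89 libraries was 0.243 CPM in the clone, 0.277 in parental cells, 0.292 after 30 days of trastuzumab with withdrawal and 0.441 after 60 days, which were 5, 6, 5 and 8 counts. It was 85.3 CPM in MamBo43, 41.6 and 43.8 CPM in MamBo43 TRT, and 69.3, 60.8, 80.8 and 79.6 CPM in MamBo38. No MamBo89 library came near any other library, whatever its HER2 status. The highest library was 352 times the lowest, the widest range of the 10 genes.

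Tgfb3 (chr12:86056745-86079041, minus strand) followed HER2 status instead. It was measured at 124, 323, 222 and 293 CPM in MamBo89 and at 668 CPM in MamBo43. It was 31.1 and 25.4 CPM in MamBo43 TRT and 23.7, 28.9, 27.3 and 32.3 CPM in MamBo38, so that the HER2-positive and HER2-negative libraries did not overlap. The 6 HER2-negative libraries lay within a narrow band despite coming from different cultures and schedules. Of the 75-base windows of Tgfb3, 7.34% also occur in transcripts of other annotated genes, mainly antisense ones, and the library kit does not mark strand.

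Tgfb2 (chr1:186622792-186705989, minus strand) was the least abundant ligand in most libraries other than MamBo89. It was 6.45, 25.0, 25.9 and 21.4 CPM in MamBo89, with the clone at the low end. The other values were 35.1 CPM in MamBo43, 24.2 and 14.9 CPM in MamBo43 TRT, and 13.3, 17.8, 13.2 and 15.8 CPM in MamBo38. All 4 groups overlapped or lay next to each other.

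The receptors differed far less between libraries than the ligands Tgfb1 and Tgfb3, and less than Tgfb2. Tgfbr2 (chr9:116084293-116175360, minus strand), the type II receptor that binds the ligand first, was 117, 119, 118 and 106 CPM in MamBo89, 176 in MamBo43, 141 and 87.3 in MamBo43 TRT, and 100.2, 115, 110.0 and 118 in MamBo38. Its highest library was 2.02 times its lowest. Tgfbr1 (chr4:47353222-47414931, plus strand), the type I receptor kinase, was 39.9, 33.7, 42.2 and 33.5 CPM in MamBo89, 61.3 in MamBo43, 51.2 and 47.5 in MamBo43 TRT, and 48.6, 24.2, 49.4 and 56.7 in MamBo38. The low MamBo38 library was the second untreated one, which is also the MamBo38 library whose name carries the code shared by the 7 libraries of the other groups.

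Tgfbr3 (chr5:107106570-107289629, minus strand), also called betaglycan, is a co-receptor that presents ligand to the type II receptor. It was 86.6, 152, 183 and 191 CPM in MamBo89, 116 in MamBo43, 63.6 and 88.2 in MamBo43 TRT, and 188, 180.4, 201 and 213 in MamBo38. Both MamBo43 TRT libraries were below every MamBo38 library.

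Of the latent binding proteins, which tether latent TGF-β to fibrillin and fibronectin fibers, Ltbp4 (chr7:27305136-27337692, minus strand) went the opposite way to Tgfb3 between HER2-positive and HER2-negative libraries. It was 4.32, 7.24, 9.40 and 7.33 CPM in MamBo89 and 31.8 CPM in MamBo43. It was 225 and 338 CPM in MamBo43 TRT and 234, 311, 287 and 347 CPM in MamBo38. HER2-positive and HER2-negative libraries did not overlap, and MamBo43 was above the MamBo89 libraries.

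Ltbp2 (chr12:84783212-84876532, minus strand), a member of the family known to bind fibrillin but not the latent ligand, was 15.4, 22.97, 12.03 and 19.0 CPM in MamBo89. It was 506 CPM in MamBo43, 503 and 769.7 CPM in MamBo43 TRT and 157, 204, 183 and 230.1 CPM in MamBo38. MamBo89 was far below the other groups, and MamBo38 lay between. An antisense transcript shares 8.21% of the 75-base windows of Ltbp2, and its reads cannot be told apart from those of the gene.

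Ltbp1 (chr17:75005568-75392512, plus strand) was 26.4, 119.6, 120.5 and 92.1 CPM in MamBo89, 667 in MamBo43, 427 and 336 in MamBo43 TRT, and 179, 278, 153 and 145 in MamBo38. Ltbp3 (chr19:5740904-5758532, plus strand) was 255, 528, 534 and 456 CPM in MamBo89, 1273 in MamBo43, 652 and 462 in MamBo43 TRT, and 251, 236, 292 and 301 in MamBo38. Both genes were highest in untreated MamBo43 and, within MamBo89, lowest in the clone.

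**Figure D1:**
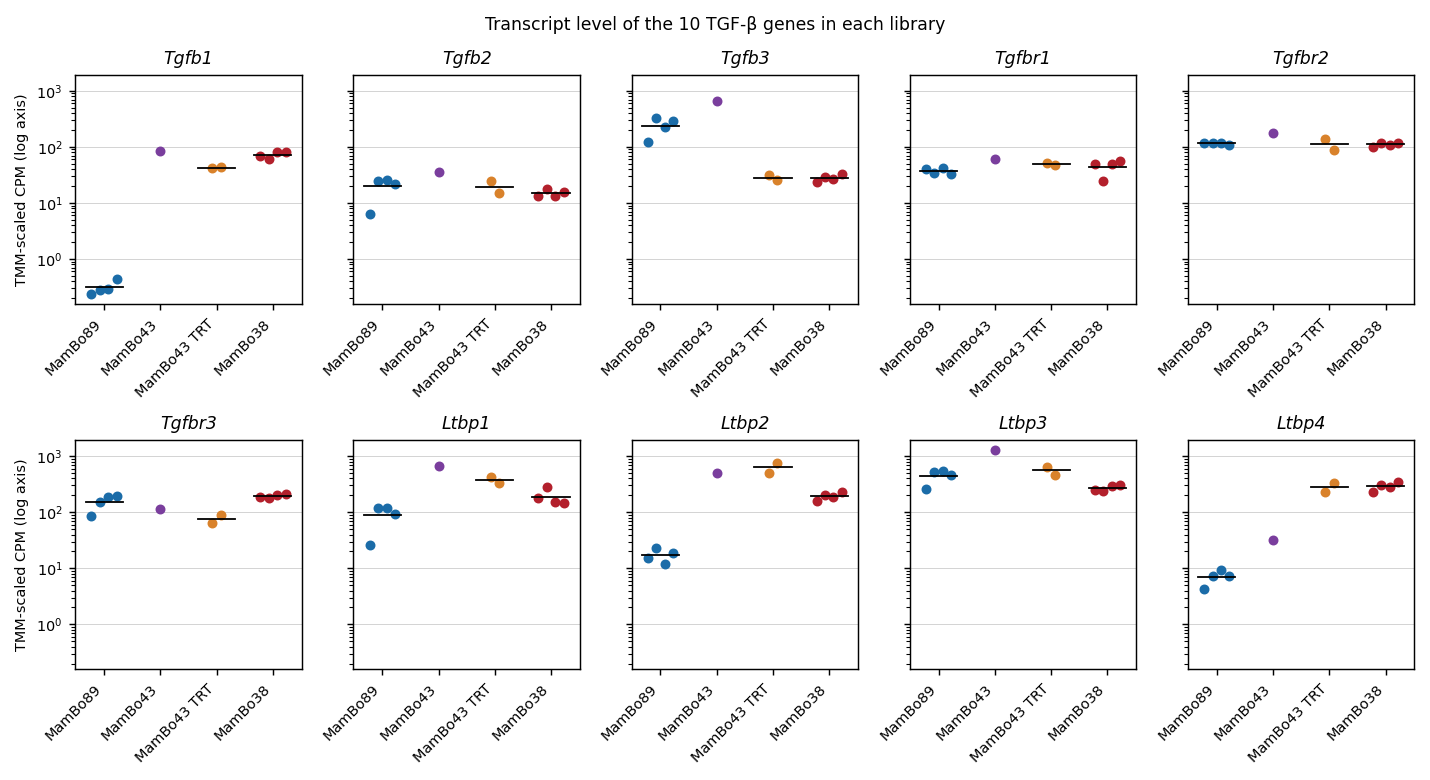
TMM-scaled CPM (log axis) of each of the 10 genes in every library, by group, with 1 point for each library and a bar at the group mean. Tgfb1 is at most 0.441 CPM in MamBo89 and at least 41.6 CPM elsewhere, Tgfb3 is at 668 CPM in MamBo43 and averages 28.3 and 28.0 CPM in the HER2-negative groups, and Ltbp4 is higher in the HER2-negative than in the HER2-positive libraries.

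Because counts rise with transcript length, levels of different genes were compared as CPM per kilobase of exon. In MamBo89 the order of the mean levels was Tgfb3 (71.1), Ltbp3 (48.9), Tgfbr3 (23.4), Tgfbr2 (14.1), Ltbp1 (8.39), Tgfbr1 (5.71), Tgfb2 (3.40), Ltbp2 (2.12), Ltbp4 (1.09) and Tgfb1 (0.0621). Neighbours in this order overlapped between libraries except for Tgfbr2 over Ltbp1, Tgfbr1 over Tgfb2, Ltbp2 over Ltbp4 and Ltbp4 over Tgfb1. In MamBo38 the order was Ltbp4 (45.6), Tgfbr3 (29.9), Ltbp3 (29.8), Ltbp2 (23.6), Ltbp1 (17.7), Tgfb1 (14.4), Tgfbr2 (13.5), Tgfb3 (8.29), Tgfbr1 (6.84) and Tgfb2 (2.60). Here Ltbp4 stood clear of Tgfbr3, Tgfbr2 of Tgfb3 and Tgfbr1 of Tgfb2, and the other neighbours overlapped. Ltbp4 thus ranked next to last among the 10 genes in MamBo89 and first in MamBo38.

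The make-up of the ligands differed accordingly. Tgfb3 made up 93.6% to 96.9% of the summed ligand level per kilobase in MamBo89, 89.6% in MamBo43, 40% to 42.5% in MamBo43 TRT and 30.4% to 36.1% in MamBo38. The share of Tgfb1 was 0.0550% to 0.127% in MamBo89, 7.68% in MamBo43, 38.1% to 46.3% in MamBo43 TRT and 50.9% to 60.8% in MamBo38. With the longest transcript as the length, the mean share of Tgfb1 in MamBo38 was 71.4% and that of Tgfb3 21.1%, so Tgfb1 led there with either length. In MamBo43 TRT the lead depended on the length in the withdrawal library, where Tgfb3 was 42.5% and Tgfb1 38.1% by summed exons but 30.6% and 53.7% by the longest transcript. The summed ligand level was 37.8 to 99.8 CPM per kilobase in MamBo89, 220.4 in MamBo43, 18.8 to 21.6 in MamBo43 TRT and 23.1 to 28.1 in MamBo38. The HER2-negative libraries thus lay below the HER2-positive ones on this length. With the longest transcript they overlapped, at 37.95 to 100.4 in MamBo89 and 35.7 to 43.6 in MamBo38.

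Among the latent binding proteins, Ltbp3 made up 79.4% to 84.9% of the summed level in MamBo89, 52.1% in MamBo43, 22.3% to 34.6% in MamBo43 TRT and 20.8% to 28.4% in MamBo38. Ltbp4 made up 1.53% to 2.01% in MamBo89, 1.82% in MamBo43, 16.7% to 22.9% in MamBo43 TRT and 36.3% to 41.8% in MamBo38. Ltbp2 had its highest share, 29.5% to 41.1%, in MamBo43 TRT. The summed level of the binding proteins was 33.2 to 73.4 CPM per kilobase in MamBo89, 269.6 in MamBo43, 208 to 229 in MamBo43 TRT and 99.8 to 129 in MamBo38. Summed receptor levels stayed between 31.4 and 55.6 CPM per kilobase in all 11 libraries. The lead of Ltbp4 among binders in MamBo38 depended on the length in the first untreated library. By the longest transcript, Ltbp3 was 31.9% and Ltbp4 31.6% there.

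**Figure D2:**
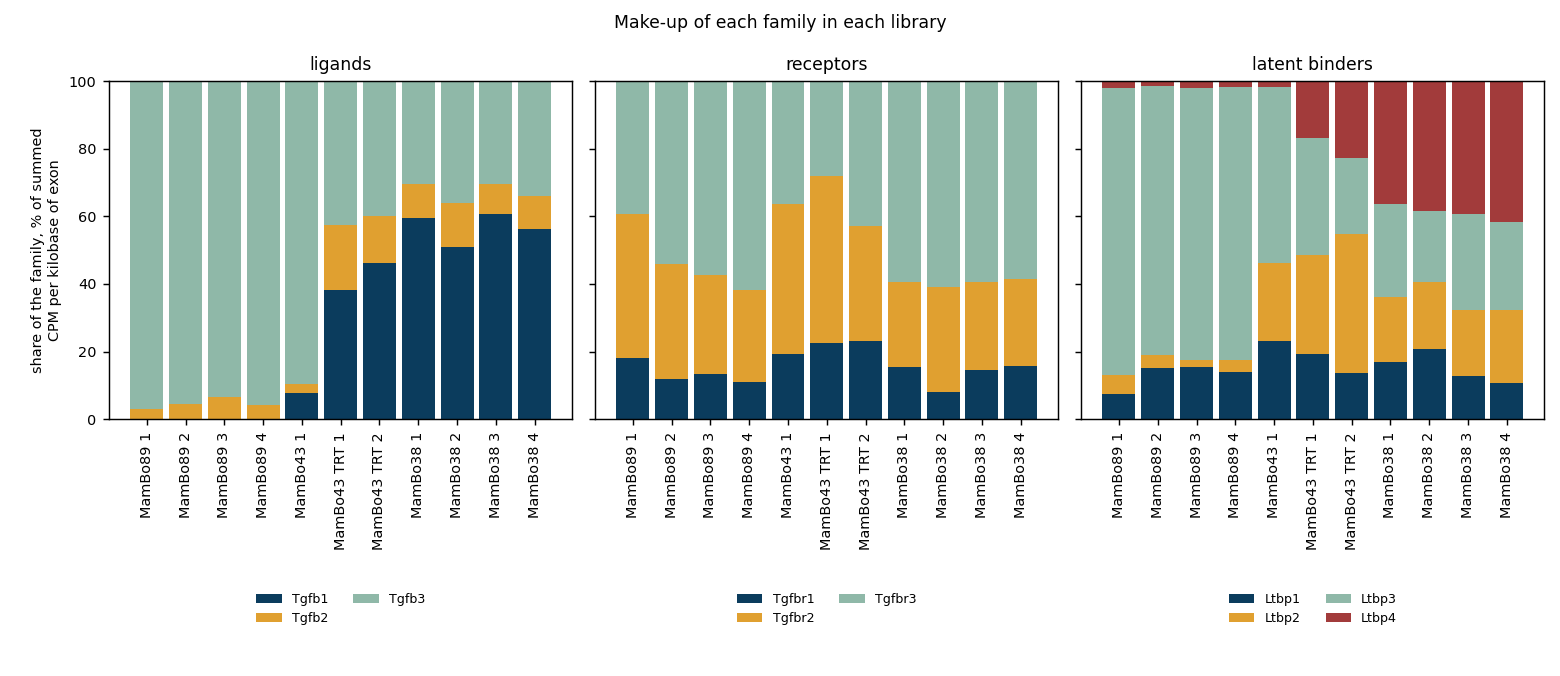
Share of each gene in the summed CPM per kilobase of exon of its family (ligands, receptors, latent binders; percent), with 1 stacked bar for each library. The ligand bars change from over 93% Tgfb3 in MamBo89 to a majority of Tgfb1 in MamBo38, and the binder bars from mostly Ltbp3 to a mixture led by Ltbp4.

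The first comparison asked which members differ between the 6 HER2-negative libraries (MamBo38 and MamBo43 TRT) and the 5 HER2-positive ones (MamBo89 and MamBo43). Tgfb3 averaged 326 ± 206 CPM (SD, n = 5) with HER2 and 28.1 ± 3.30 CPM (SD, n = 6) without it, 11.6-fold lower (log2 fold change −3.54, SE 0.36, adjusted p = 2.17e-05, edgeR quasi-likelihood test with Benjamini-Hochberg adjustment, as for all adjusted p below unless named). Ltbp4 was 290.4 ± 51.8 CPM against 12.01 ± 11.2 CPM, 24.1-fold higher (log2 fold change 4.59, SE 0.52, adjusted p = 4.08e-05). Calls required an adjusted p below 0.1 together with a log2 fold change of 1 or more in size. By this rule 1 of 10 members was higher and 1 lower, against 15.8% of all 12364 genes tested higher and 17% lower. The HER2 groups did not overlap in any library for these 2 of the 10 members, as for 34.9% of all genes tested, so the share of members that separated was not above the background.

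The other 8 members were not called between the HER2 groups. Tgfb1 had a log2 fold change of 1.85 (SE 1.41, adjusted p = 0.289) and Ltbp2 of 1.57 (SE 1.03, adjusted p = 0.224), with MamBo43 far above the other HER2-positive libraries for both. Without the MamBo43 library, Tgfb1 was called at 7.63 (adjusted p = 1.61e-07), Ltbp2 at 4.30 (adjusted p = 0.000106) and Ltbp1 at 1.497 (adjusted p = 0.0177), which brought the called members to 5. The count over all genes rose from 4052 to 4607 in that fit. The log2 fold changes of the receptors were 0.13 for Tgfbr1 (95% confidence interval −0.36 to 0.63), −0.19 for Tgfbr2 (−0.53 to 0.16) and 0.09 for Tgfbr3 (−0.63 to 0.82). Those of Tgfb2, Ltbp1 and Ltbp3 were −0.46 (adjusted p = 0.281), 0.30 (adjusted p = 0.728) and −0.74 (adjusted p = 0.139). The median over the members was 0.11, beside −0.04 over all genes tested.

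HER2 status is tied to the tumor of origin and in part to a code in the library names, which 8 libraries share and the other 3, all MamBo38, do not. With the code as a covariate the values were −3.52 for Tgfb3 and 4.596 for Ltbp4. Within the 8 libraries that share a code they were −3.50 and 4.61. MamBo89, the one line of its tumor, is HER2-positive, so a fit with tumor as a term compares MamBo43 with its HER2-negative derivatives, and it gave −4.57 for Tgfb3 and 3.19 for Ltbp4. Among untreated libraries they were −3.82 and 4.23. Both genes were called under each of these.

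**Figure D3:**
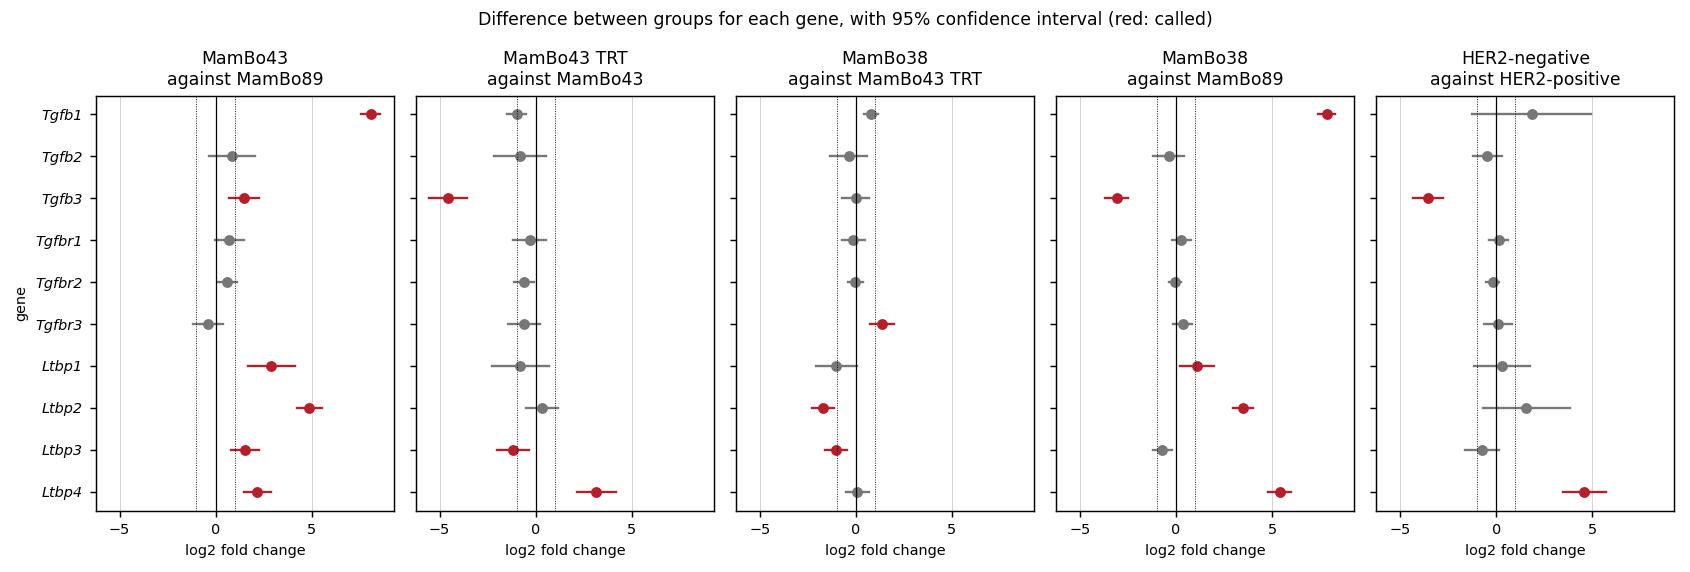
Log2 fold change of each of the 10 genes in 5 comparisons, with its 95% confidence interval, from edgeR; red points were called and dotted lines mark a log2 fold change of 1 in either direction. Tgfb1 stands out at about 8 in both comparisons against MamBo89, and Tgfb3 (−4.56) and Ltbp4 (3.15) lie on opposite sides in MamBo43 TRT against MamBo43.

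Comparing the HER2-positive lines of different tumors, MamBo43 against MamBo89, 6 of the 10 members were called higher and 0 lower, against 11% of 13782 genes tested higher and 7.86% lower. Tgfb1 was 269-fold higher (log2 fold change 8.07, SE 0.22, adjusted p = 1.38e-08) and Ltbp2 29.1-fold (4.86, SE 0.29, adjusted p = 2.66e-06). Ltbp1 was 7.44-fold higher (adjusted p = 0.00445), Ltbp4 4.495-fold (adjusted p = 0.00106), Ltbp3 2.87-fold (adjusted p = 0.00827) and Tgfb3 2.78-fold (adjusted p = 0.0169). All 4 latent binding proteins were thus higher in MamBo43, whereas the 3 receptors were not called. Tgfbr2 passed the p threshold at a log2 fold change of 0.61 (adjusted p = 0.0703), under the fold minimum. Tgfbr1 was at 0.71 (adjusted p = 0.169), Tgfbr3 at −0.40 (adjusted p = 0.478) and Tgfb2 at 0.83 (adjusted p = 0.314). The member median was 1.497, beside −0.07 over all genes. MamBo43 has 1 library, so the fit assumed that it varied like the other groups, and tumor and line cannot be told apart here. The study had already named Tgfb1 and Ltbp1 among genes that differ between HER2 stable and HER2 labile cells. The members were thus not chosen blind to this comparison.

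HER2 labile and HER2 stable cells were also compared on untreated cells alone (1 untreated MamBo43 library against 2 untreated MamBo89 libraries). The only spread within a group there is that between the MamBo89 clone and its parental cells, so p-values measure no spread of MamBo43. Here 4 members were called higher and 0 lower, against 4.87% and 2.53% of 12867 genes. They were Tgfb1 (8.34, adjusted p = 4.16e-07), Ltbp2 (4.74, adjusted p = 6.75e-06), Ltbp1 (3.22, adjusted p = 0.0039) and Ltbp4 (2.47, adjusted p = 0.0363). Ltbp3 (1.72, adjusted p = 0.103) and Tgfb3 (1.601, adjusted p = 0.123) missed the p threshold, and both were called by DESeq2 (adjusted p = 0.0299 and 0.0937) and by edgeR with no filter on low counts (adjusted p = 0.0358 and 0.0294). Against the parental library alone, with no test, the log2 difference of Ltbp1 was 2.48, since the clone had the lowest Ltbp1 level of all libraries.

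After trastuzumab, MamBo43 TRT differed from untreated MamBo43 in 3 members: 1 was called higher and 2 lower, against 13.6% and 15.5% of genes. Tgfb3 was 28.3 ± 4.05 CPM (SD, n = 2) against 668 CPM, 23.6-fold lower (log2 fold change −4.56, SE 0.44, adjusted p = 0.000118). Ltbp4 was 282 ± 80.2 CPM against 31.8 CPM, 8.91-fold higher (3.15, SE 0.45, adjusted p = 0.00083). Ltbp3 was 2.28-fold lower (−1.19, SE 0.37, adjusted p = 0.035), a call lost without the MamBo43 TRT library of the 60-day schedule (−0.96, adjusted p = 0.17). Tgfb1 had a log2 fold change of −0.99 (SE 0.22, adjusted p = 0.00775), which lay at the fold minimum, and DESeq2 called it at −1.02. Ltbp2, at 0.34 (95% confidence interval −0.49 to 1.16), and Ltbp1, at −0.80 (−2.29 to 0.68), were not called. Nor were Tgfb2 (−0.84), Tgfbr1 (−0.31), Tgfbr2 (−0.62) and Tgfbr3 (−0.61). Tgfbr2 passed the p threshold but not the fold minimum, and it ran from −1.03 to −0.32 without 1 library. The member median was −0.71, beside 0 over all genes. Both sides of this comparison come from 1 line, but epithelial and fibroblast marker sums moved between them as well, and their part was not tested.

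MamBo38, which arose in mice, was next compared with MamBo43 TRT, which lost HER2 in culture. Tgfb3 differed by −0.01 on the log2 scale (95% confidence interval −0.70 to 0.68) and Ltbp4 by 0.07 (−0.53 to 0.66), so both intervals lay within 1 log2 unit of no difference. One member was called higher and 2 lower, against 10.2% of genes in either direction. Tgfbr3 averaged 195 ± 14.4 CPM (SD, n = 4) in MamBo38 and 75.9 ± 17.3 CPM (SD, n = 2) in MamBo43 TRT, 2.58-fold higher in MamBo38 (log2 fold change 1.36, SE 0.29, adjusted p = 0.00626). Ltbp2 was 3.29-fold lower (−1.72, SE 0.25, adjusted p = 0.000844) and Ltbp3 2.06-fold lower (−1.04, SE 0.27, adjusted p = 0.0149). The Ltbp3 call was lost without the second untreated MamBo38 library (−0.98) or the first MamBo43 TRT library, that of the withdrawal schedule (−0.79). Tgfb1 was 72.6 ± 9.40 against 42.7 ± 1.57 CPM, a log2 fold change of 0.77 (adjusted p = 0.00722), below the fold minimum. Ltbp1 was at −1.01 (adjusted p = 0.132), and it was called without the second untreated MamBo38 library (−1.26, adjusted p = 0.0873) or without the MamBo89 clone (−1.03, adjusted p = 0.00678), which enters through the shared estimate of spread. With the code as a covariate, MamBo38 rests on its second untreated library, the only one that shares the code of MamBo43 TRT. Tgfbr3 was then at 1.25, Ltbp2 at −1.65, Ltbp3 at −1.24 and Tgfbr1 at −1.03. The member median was −0.09, beside −0.01 over all genes.

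MamBo38 and MamBo89 trace to different tumors and differ in HER2 status, so tumor, line and HER2 status cannot be told apart here. Between them, 4 members were called higher in MamBo38 and 1 lower, against 19.9% and 22% of genes. Tgfb1 was 230.4-fold higher in MamBo38 (log2 fold change 7.85, adjusted p = 1.28e-09), Ltbp4 41.9-fold (5.39, adjusted p = 8.88e-08) and Ltbp2 11.2-fold (3.48, adjusted p = 6.48e-07). Ltbp1 was 2.11-fold higher (1.08, adjusted p = 0.0362), a call lost without the second untreated MamBo38 library (0.84) or without the MamBo89 clone (0.79). Tgfb3 was 8.54-fold lower (−3.09, adjusted p = 4.22e-06). Ltbp3, at −0.71 (adjusted p = 0.0175), passed the p threshold but not the fold minimum. With the code as a covariate, MamBo38 again rests on its second untreated library. The same 5 genes were then at 7.59 (Tgfb1), 5.46 (Ltbp4), 3.55 (Ltbp2), 1.63 (Ltbp1) and −3.05 (Tgfb3), while Tgfbr1 turned from 0.27 to −0.62. The member median was 0.31, beside −0.07 over all genes. The contrasts over the 4 groups share libraries with each other, so their values stand side by side and are not independent.

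No member was called for trastuzumab within the lines that did not switch HER2 status. In MamBo89 (2 treated against 2 untreated libraries), 0 of the 9 members tested were called, and 0% of genes, with adjusted p between 0.944 and 0.991. At an unadjusted p under 0.05 there were 0 members and 186 genes, and DESeq2 called 3 genes. Tgfb1 did not pass the filter on low counts there. Without the parental library, the log2 fold changes were 1.98 for Ltbp1, 1.84 for Tgfb2, 1.08 for Tgfbr3 and 1.02 for Tgfb3. The clone, then the lone untreated library, had the lowest level of each in MamBo89. In MamBo38, 0 of 10 members and 0% of genes were called. Ltbp1 (−0.61, unadjusted p = 0.0346, edgeR) and Ltbp3 (0.28, unadjusted p = 0.0459, edgeR) were among 503 genes at an unadjusted p under 0.05, and DESeq2 called 4 genes. Without the first untreated MamBo38 library, Tgfbr1 was at 1.16, but the untreated library left then carries another code than both treated ones. Treatment and code cannot be told apart there. The difference between the trastuzumab effects in MamBo38 and MamBo89 was called for 0 members and 0% of genes, with 218 genes at an unadjusted p under 0.05 and 2 genes by DESeq2.

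The trastuzumab difference of MamBo43 was also set against that of MamBo89, a test chosen after the data were seen. Tgfb3 differed by −4.75 on the log2 scale (SE 0.69, adjusted p = 0.0294) and Ltbp4 by 2.63 (SE 0.54, adjusted p = 0.0499), so that 1 member was called in each direction, against 5.58% of genes higher and 6.52% lower. Both calls were lost without the MamBo43 TRT library of the 60-day schedule (adjusted p = 0.104 and 0.139), without the MamBo89 withdrawal library (adjusted p = 0.102 and 0.131) or without the MamBo89 library of the 60-day schedule (adjusted p = 0.145 and 0.199). The log2 differences in these 3 fits stayed between −4.93 and −4.57 for Tgfb3 and between 2.31 and 2.83 for Ltbp4. Without the parental MamBo89 library, which leaves the clone as the lone untreated one, the log2 differences were −5.60 for Tgfb3 and 2.22 for Ltbp4.

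Genes that act with the members were examined as 5 lists of pathway genes, and HER2-negative libraries were compared with HER2-positive ones. The counts stand beside 15.8% of all genes called higher and 17% lower. Of the genes that activate or anchor latent TGF-β (21 listed, 19 tested), 7 were called higher and 1 lower, with a median log2 fold change of 0.51. Fn1 (fibronectin, on which latent complexes are deposited) had mean levels of 953 CPM in MamBo89, 561 in MamBo43, 36952 in MamBo43 TRT and 22438 in MamBo38 (log2 fold change 4.96, adjusted p = 0.000143). Fbn1 (fibrillin-1, the microfibril protein that LTBPs bind) was 3.52, 14.98, 198 and 115 CPM in the same order (4.61, adjusted p = 0.000117). Emilin1, an inhibitor of proTGF-β processing, was 0.840, 1.97, 46.6 and 72.3 CPM (5.89, adjusted p = 5.3e-06). Mmp9, a protease, was higher at a low level, 0.0138, 0.432, 3.41 and 6.41 CPM (5.60, adjusted p = 0.000999). Itgb3, the integrin subunit that pairs with αv, was lower, at 137, 113.5, 5.56 and 4.96 CPM (−4.68, adjusted p = 3.5e-07). The list thus held called genes known to anchor latent complexes as well as 1 known to restrain processing, and its integrin β3 subunit moved the other way.

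Of the co-receptors and extracellular modulators (10 listed, 8 tested), 4 were called higher and 1 lower, with a median of 1.78. Eng (endoglin, a co-receptor) was 0.727, 1.61, 77.3 and 69.8 CPM in MamBo89, MamBo43, MamBo43 TRT and MamBo38 (log2 fold change 6.30, adjusted p = 4.44e-06). The small proteoglycans Dcn and Bgn, which bind TGF-β, were absent or nearly so in MamBo89 (0 and 0.0774 CPM) and were 20.4 and 41.0 CPM in MamBo43, 168 and 1509 in MamBo43 TRT, and 239 and 244 in MamBo38 (adjusted p = 0.0131 and 0.0163). Cd109, a co-receptor known to restrain signaling, was 8.002, 5.31, 28.6 and 74.6 CPM (2.99, adjusted p = 0.000498). Bambi, a decoy receptor, was lower, at 25.0, 10.5, 1.22 and 0.170 CPM (−5.39, adjusted p = 0.000336).

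Of the Smads and their regulators (18 tested), 2 were called higher and 3 lower, with a median of −0.20. Smad3, a receptor-activated Smad, was 60.3, 109, 121 and 184 CPM in MamBo89, MamBo43, MamBo43 TRT and MamBo38 (log2 fold change 1.22, adjusted p = 0.000818), and the deubiquitinase Usp15 57.2, 66.1, 130 and 152 CPM (1.29, adjusted p = 2.27e-05). The feedback inhibitors Skil (202, 265, 91.3 and 39.4 CPM, −1.92, adjusted p = 0.000334) and Pmepa1 (230, 472, 137 and 5.62 CPM, −2.50, adjusted p = 0.0566) were lower. Other genes of these kinds, not called and picked with their values known, went the other way without overlap. The feedback inhibitor Smad7 was higher without HER2 (35.5 against 21.6 CPM), and the receptor-activated Smad2 was lower (41.2 against 64.8 CPM).

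Of the genes that textbooks list as TGF-β targets (23 tested), 9 were called higher and 4 lower, with a median of 0.26 beside −0.04 over all genes. Those higher by the largest log2 fold changes in this list were Acta2 (smooth muscle actin, 0, 1.297, 268 and 12.9 CPM in MamBo89, MamBo43, MamBo43 TRT and MamBo38, adjusted p = 0.0028), Tgfbi (0.0138, 3.15, 45.2 and 312 CPM, adjusted p = 0.000668), Col1a2 (0.0407, 98.4, 4813 and 2806 CPM, adjusted p = 0.0139) and Zeb1 (0.688, 2.87, 50.8 and 106 CPM, adjusted p = 4.99e-05). Acta2, Col1a1 and Col1a2 are also among the basal or fibroblast markers used above. The repressor Bhlhe40, lower at 643, 314, 132 and 149 CPM (−2.01, adjusted p = 0.000556), and the immediate targets Skil and Pmepa1 moved the opposite way, so the list did not move in 1 direction. Of the activin branch (12 listed, 9 tested), 2 were higher and 2 lower, among the latter the activin βB subunit Inhbb (601, 132, 25.3 and 0.635 CPM, −5.83, adjusted p = 0.00343) and the type I receptor Acvr1b (43.8, 56.1, 24.0 and 18.9 CPM, −1.17, adjusted p = 0.000173).

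**Figure D4:**
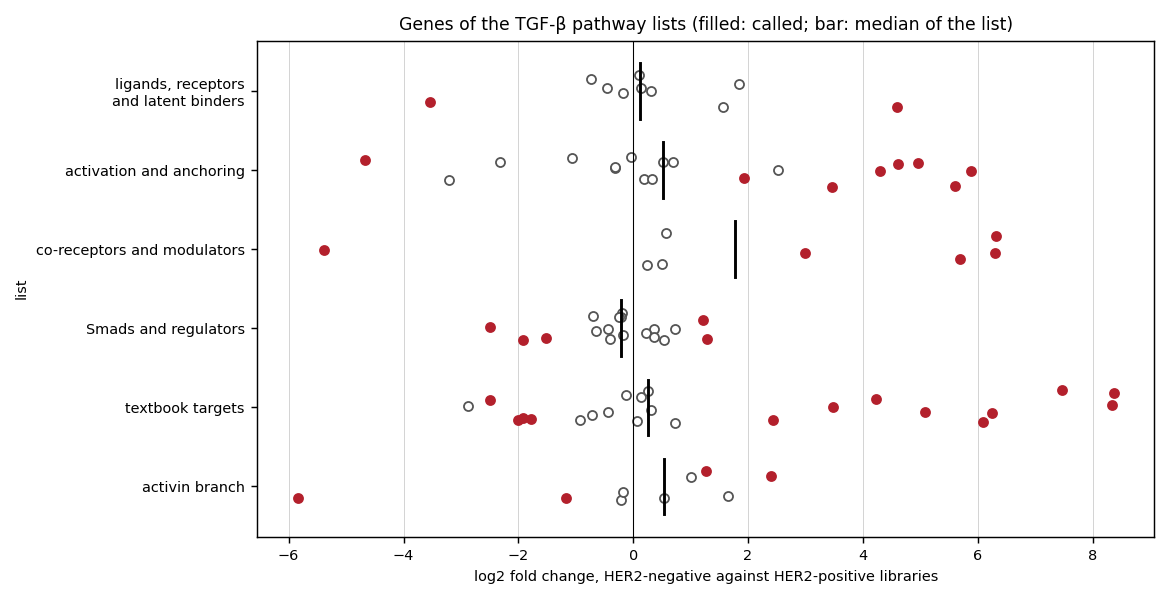
Log2 fold change of each gene tested, HER2-negative against HER2-positive libraries, for the 10 members and the 5 pathway lists; filled points were called and the vertical bar is the median of the list. Called genes lie on both sides in every list, and the medians run from −0.20 (Smads and regulators) to 1.78 (co-receptors and modulators).

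The same lists were counted between the 4 groups. For MamBo43 against MamBo89, where 11% of all genes were higher and 7.86% lower, 11 of 23 textbook targets were called higher and 2 lower, 9 of 20 activation and anchoring genes higher and 0 lower, and 5 of 8 co-receptors and modulators higher and 0 lower. For MamBo43 TRT against MamBo43, with 13.6% and 15.5% of all genes called, the targets gave 9 higher and 3 lower, the activation and anchoring genes 7 and 3, and the co-receptors and modulators 4 and 4, so that all 8 tested were called. For MamBo38 against MamBo43 TRT, with 10.2% of all genes in either direction, the targets gave 3 higher and 9 lower. Smads and regulators gave 2 and 0, 0 and 4, and 0 and 2 in these 3 comparisons. Within MamBo89 and within MamBo38, 0 genes of any list were called after trastuzumab.

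The genes whose pattern over the 11 libraries was most like that of each member were taken by Pearson correlation of log2(CPM + 1), given as a description of libraries that share lines and treatments. For Tgfb1 they were Pcolce, an enhancer of procollagen processing (r = 0.998), and Mmp14, the membrane-anchored metalloproteinase MT1-MMP (r = 0.997). Mmp14 had mean levels of 0.0807 CPM in MamBo89, 362 in MamBo43, 245 in MamBo43 TRT and 502 in MamBo38. For Ltbp4 they were Serpinf1, which encodes the secreted protein PEDF (r = 0.995), and Aebp1, a matrix protein (r = 0.994). Serpinf1 was 0.0399, 9.08, 518 and 598 CPM. For Tgfb3 they were Gdpd2 (r = 0.994) and Fam181b (r = 0.991), and Gdpd2 was 7.80, 26.5, 0.499 and 0.145 CPM. For Ltbp2 they were the cytokine signaling inhibitor Socs2 and the kinase Brsk1 (r = 0.989 for each). The least similar partners were Gm3435 (r = 0.889) and Tep1 (r = 0.878) for Tgfbr1. The remaining pairs were Ndufa13 and Sun2 for Tgfb2 (0.931 and 0.929), Ctsh and Epas1 for Tgfbr2 (0.925 and 0.895), Fetub and Nlgn2 for Tgfbr3 (0.9746 and 0.960), Cdadc1 and Osgep for Ltbp1 (0.968 and 0.952), and Tgm1 and Pyroxd2 for Ltbp3 (0.970 and 0.968). Among the members themselves, Tgfb1 was most like Ltbp2 (r = 0.918) and Ltbp4 (r = 0.906), and Tgfb3 least like Ltbp4 (r = −0.851).

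Tgfb1 and Ltbp4 lie on the same chromosome, with their starts 1650690 bases apart, and their neighbours were examined after the data were seen. Of 19 tested genes whose start lies within 500000 bases of that of Tgfb1, 2 were called higher in MamBo43 than in MamBo89 and 0 lower, and their median log2 fold change was −0.11. Over all genes tested, 11% were higher and 7.86% lower, so the neighbours were called higher about as often as other genes. The 2 were Axl, a receptor tyrosine kinase (3.40, adjusted p = 0.00939), and Lipe, hormone-sensitive lipase (1.601, adjusted p = 0.00592). Above 1 CPM in every MamBo89 library were 16 of these 19 genes. Genes with few counts in every group had been dropped by the filter, so this count does not cover all genes around Tgfb1. Around Ltbp4, 2 of 27 tested genes were called higher, Cyp2f2 (3.92, adjusted p = 0.029) and Shkbp1 (1.46, adjusted p = 0.0406), and 0 lower, with a median of −0.40. Ltbp2 and Tgfb3, which lie 1202509 bases apart on chromosome 12, differed in their pattern over the groups.

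**Figure D5:**
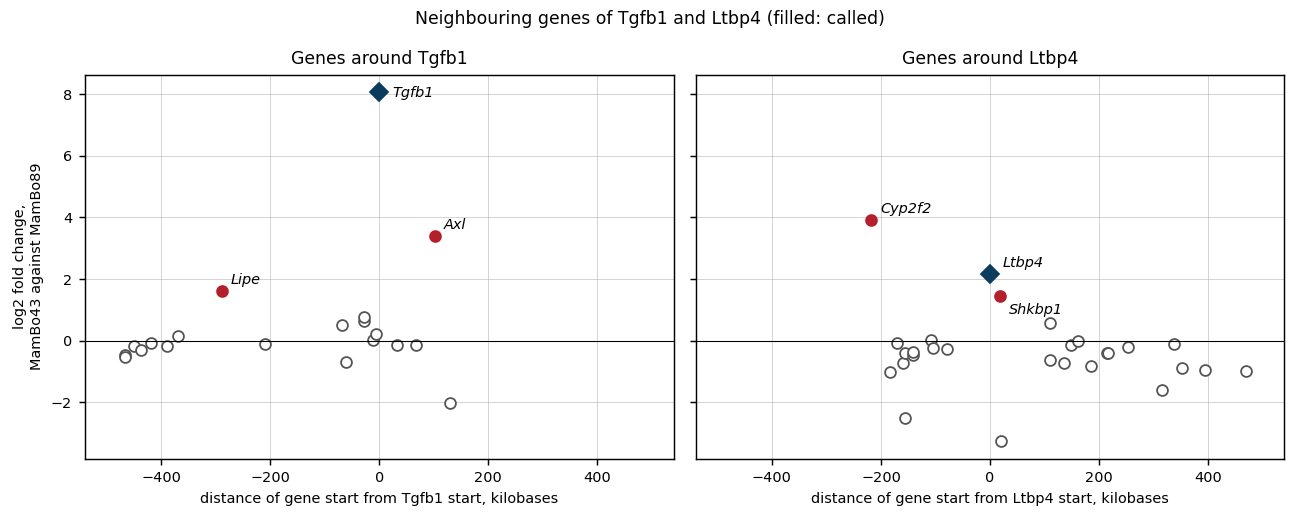
Log2 fold change of MamBo43 against MamBo89 (vertical axis) for the genes around Tgfb1 and around Ltbp4, by distance of their start from that of the member in kilobases; filled points were called. Most neighbours lie near 0, with a median of −0.11 around Tgfb1 and −0.40 around Ltbp4, far below Tgfb1 itself at 8.07.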

How the data were processed

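RNA of 11 MamBo cultures was measured. The authors prepared unstranded TruSeq libraries, read 75 nucleotides from one end, demultiplexed with bcl2fastq and obtained expected counts per gene with STAR 2.5 and RSEM 1.3.0 on mm10, per the labels' processing notes. The deposited expected counts were whole numbers and were used as such. The 10 members and the gene lists were chosen with earlier results of these data known. Counts were tested in R 4.3.3 with edgeR 4.0.16 (filterByExpr, min.count 10, min.total.count 15, TMM, glmQLFit and glmQLFTest), with Benjamini-Hochberg adjustment over all genes tested. Standard errors were taken as the size of the log2 fold change over the root of the F statistic. MamBo89, MamBo43, MamBo43 TRT and MamBo38 were fitted together as 4 groups, and the HER2, labile and trastuzumab comparisons in fits of their own. Named are the 10 members, up to 4 called genes in each direction from each list with the largest change among those whose HER2 groups do not overlap, and the 2 genes most like each member; others are marked. Alternatives were DESeq2 1.42.0, RLE size factors, no filter, other thresholds, covariates, subsets and leaving out each library. Gene positions are from GENCODE M21 (mm10) and promoter windows from RefSeq (GRCm38.p6), where 8 of the 10 members matched. One MamBo89 library was taken as the clone from the study's methods, since its labels do not say so. The fits were tested on simulated counts.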

Additional observations from a re-analysis of the deposited data

Results flagged for a closer look

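Within the 5 HER2-positive libraries, the MamBo43 library stood apart from the 4 MamBo89 libraries for 6 of the 10 genes. The gap to its nearest neighbour as a share of the whole range was 0.998 for Tgfb1 (85.3 CPM against 0.243 to 0.441), 0.978 for Ltbp2 (506 against 12.03 to 22.97), 0.853 for Ltbp1 (667 against 26.4 to 120.5), 0.822 for Tgfbr2 (176 against 106 to 119), 0.815 for Ltbp4 (31.8 against 4.32 to 9.40) and 0.726 for Ltbp3 (1273 against 255 to 534). MamBo43 is a line of its own in that group.

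Tgfbr1 was 24.2 CPM in the second untreated MamBo38 library against 47.5 to 56.7 CPM in the other 5 HER2-negative libraries (0.719 of the range). Tgfbr2 was 106 CPM in the MamBo89 library treated for 60 days against 117 to 119 CPM in the other 3 (0.868 of the range, over a narrow range). In all, 8 of 40 groups of values had such a sample, and chance alone would give about 1 in 20.

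The trastuzumab difference of MamBo43 departed from that of MamBo89 by −4.75 on the log2 scale for Tgfb3 and by 2.63 for Ltbp4 (edgeR interaction, adjusted p = 0.0294 and 0.0499), a test that rests on 1 untreated MamBo43 library.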

How the results depend on the processing

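The calls of Tgfb3 and Ltbp4 between the HER2 groups kept their direction and stayed past the thresholds under all 20 alternatives run for each, with log2 fold changes of −4.57 to −3.10 and 3.19 to 5.36; without any 1 library they ran from −3.73 to −3.10 and from 4.39 to 5.36. The 6 calls of MamBo43 against MamBo89 held under all 16 alternatives each. The members called between the HER2 groups numbered 2 to 5 without 1 library, 5 being without MamBo43, beside 3795 to 4607 of all genes. Members not called between the HER2 groups turned direction: Tgfbr1 with the code as a covariate (−0.040), within libraries that share a code (−0.029), with tumor as a covariate (−0.41) and among untreated libraries (−0.29); Tgfbr3 with the code (−0.40), within a code (−0.38) and without 1 library (−0.025 to 0.26, below 0 without the MamBo89 clone or the MamBo38 library treated for 60 days); Tgfb1 with tumor (−0.45); Ltbp1 with tumor (−1.40) and among untreated libraries (−0.26); Ltbp2 likewise (−0.57 and −0.027). With tumor as a covariate Ltbp3 was called (−1.80).

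For MamBo43 TRT against MamBo43, dropping the fold minimum gave 5 members, and Ltbp2 ran from −0.0052 to 0.58 and Ltbp3 from −1.48 to −0.96 without 1 library. For MamBo38 against MamBo43 TRT, Tgfb3 was 0.017 with DESeq2, 0.018 with RLE size factors and 0.033 with the code, and Tgfbr2 0.014 with the code. Without 1 library the ranges there were −0.15 to 0.13 for Tgfb3, −0.34 to 0.33 for Tgfbr2, −0.28 to 0.067 for Tgfbr1, −0.21 to 0.39 for Ltbp4, −0.69 to 6.67e-05 for Tgfb2 and −1.27 to −0.79 for Ltbp3. For MamBo38 against MamBo89, Tgfbr1 was −0.62 and Tgfbr2 0.0036 with the code, and Ltbp1 ran from 0.79 to 1.26 without 1 library. The cause of these changes was not tested.

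Without 1 library, 0 to 4 members were called for trastuzumab in MamBo89, 0 to 1 in MamBo38, 0 to 2 for its difference between these lines and 0 to 7 for that between MamBo43 and MamBo89. The log2 fold changes in MamBo89 then ran from −0.070 to 1.84 for Tgfb2, −0.32 to 1.02 for Tgfb3, −0.15 to 0.19 for Tgfbr1, −0.16 to 1.98 for Ltbp1 and −0.085 to 0.92 for Ltbp3, and in MamBo38 from −0.26 to 0.12 for Tgfb2. All-gene counts moved by over 1.5 times without the fold minimum (HER2 groups 4052 to 7459, MamBo38 against MamBo43 TRT 2818 to 5326, MamBo38 against MamBo89 5772 to 9656), with all 4 MamBo89 libraries in the labile comparison (952 to 1697), for the difference between MamBo43 and MamBo89 (1633 to 2729 with DESeq2, 556 at an adjusted p under 0.05 and 0 to 4091 without 1 library), and without 1 library for trastuzumab in MamBo89 (0 to 2296), in MamBo38 (0 to 1057) and between them (0 to 826).

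With the longest transcript as the length, the mean share of Tgfb1 among ligands was 0.176% in MamBo89 and 71.4% in MamBo38, and that of Tgfb3 in MamBo38 21.1%. No paired analysis was run, since the labels give no replicate numbers. They do tie libraries across lines by treatment schedule, but a fit matched by schedule was not run either. For single genes and ligand shares, 1107 values stayed the same, 38 reversed, 33 passed the thresholds newly, 11 lost them and 6 moved. For a test, the same meant an unchanged direction and side of the threshold, and for untested values a value close to the main one. Tgfb1 in MamBo89 rests on 5 to 8 counts a library, which limits how well its fold against that line is known.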

Other observations

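Some genes of the pathway lists, chosen after their values were seen, were high in MamBo43 and MamBo43 TRT and low in both MamBo89 and MamBo38. Postn, a matricellular protein, was 12.1 to 36.8 CPM in MamBo89, 2964 in MamBo43, 2227 and 1707 in MamBo43 TRT and 22.4 to 36.1 in MamBo38. Ccn2, a textbook TGF-β target, was 5.51 to 14.8, 798, 377 and 96.3, and 4.19 to 26.9 CPM in the same order. Thbs1, thrombospondin-1, an activator of latent TGF-β, was 47.4 to 120.6, 2029, 788 and 229, and 40.6 to 108 CPM. Itgb6, the subunit of the αvβ6 integrin that activates latent TGF-β, was at most 0.340 CPM in MamBo89 and 0.119 CPM in MamBo38, beside 20.5 in MamBo43 and 9.47 and 2.72 in MamBo43 TRT. By edgeR these 4 genes were called higher in MamBo43 than in MamBo89 (Postn 6.93, Ccn2 6.19, Thbs1 4.77 and Itgb6 6.54 on the log2 scale) and lower in MamBo38 than in MamBo43 TRT (−6.08, −4.10, −2.67 and −7.13). These calls repeat the pattern by which the genes were chosen and are no separate test of it.

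Lrrc32, which encodes the cell-surface anchor GARP for latent TGF-β, differed between the HER2-negative groups, again as seen after the fact. It was 14.5 to 24.5 CPM in MamBo89, 26.97 in MamBo43 and 14.3 and 9.68 in MamBo43 TRT. In MamBo38 it did not exceed 0.145 CPM in any library (log2 fold change against MamBo43 TRT −7.01, edgeR, adjusted p = 1.19e-05).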
